A study of Rattus norvegicus with 6 samples.

Results

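The genes that give the oviduct and the surface of the ovary their epithelial identity were followed across the 6 arrays of the study. They were chosen by name as 9 genes, Pax2, Pax8, Emx2, Foxj1, Msln, Epcam, Ovgp1, Muc1 and Upk3b. Of these, 6 had a probe whose RefSeq accession matched the gene, among 26903 gene names on the array. Each was represented by 1 probe, out of 30367 probes in all. No probe could be tied to Ovgp1, Muc1 or Upk3b, which were left out. Every array measured all 6 members well above background. RNA came from the ovaries of female Wistar rat pups on postnatal day (PND) 7. The pups had received 0.05 mg/kg of lipopolysaccharide (LPS) from Salmonella Enteritidis or an equal volume of saline by intraperitoneal injection on PNDs 3 and 5, with 3 arrays for each treatment. LPS, or endotoxin, coats Gram-negative bacteria and triggers innate immune signalling. All pups were of the wild-type outbred strain. Whole litters were given one treatment or the other, so litter and treatment cannot be told apart. More animals than arrays contributed to each treatment, and how ovaries were combined on an array was not given in the sources used here, so the p-values measure only the spread between these arrays.

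The oviduct, the uterus and the upper vagina develop from the Müllerian duct, a tube of epithelium that forms in the intermediate mesoderm beside the gonad. Pax2 and Pax8 are paired-box transcription factors needed to form that duct and the kidney tubules, and Emx2 is a homeobox transcription factor needed for the urogenital epithelium. In the mature oviduct the epithelium holds secretory cells, which keep PAX8, and ciliated cells, whose motile cilia depend on the transcription factor FOXJ1. The ovary itself is covered by a single layer of modified mesothelium. Msln encodes mesothelin, a surface protein of mesothelial cells, and Epcam encodes an adhesion molecule found on most epithelia. The oviduct lies against the ovary in the neonatal rat, and a whole-organ RNA sample contains whatever surface and adjoining epithelium was taken with the ovary. In such a sample, fewer cells of a type and less RNA per cell cannot be told apart.

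The level used throughout is the log2 of the background-subtracted spot signal minus the 75th percentile of its array, so that 1 unit is a 2-fold step. Levels of different probes are not set against each other. The 75th percentile itself ran from 2824 to 6754 signal units. Oocyte and granulosa cell markers were present on every array: 12 of 12 oocyte genes and 10 of 12 granulosa cell genes with a probe were well above background on all 6 arrays. Saline replicates 2 and 3 stood apart from the other arrays. The summed relative signal of 14 adrenal cortex genes was 342 and 416 on these arrays, compared with 11.8 on saline replicate 1 and 10.2 to 23.2 on the LPS arrays. For 12 genes of the adrenal medulla, the corresponding sums were 98.5 and 59.99, against 6.85 and 4.06 to 6.38. The part of this adrenal RNA in the results below was not tested, and the members' differences and the counts of genes past the criterion in each list are also given without these 2 arrays.

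No member differed between LPS-treated and saline-treated ovaries by the criterion of the study, a 2-fold change with an unadjusted p under 0.05. The count was 0 of 6 genes, where 1.57% of all gene names passed, 0.539% higher and 1.03% lower, as did 0.933% of the gene names well above background on all arrays. None passed an adjusted p under 0.05 in limma, as was so for all 26903 gene names. An unadjusted p under 0.05 was likewise reached by 0 of 6, in limma and in the methods' t-test. In limma it was reached by 15.9% of all gene names, but these include names not well above background, so the shares are not compared. The balance of the calls over all probes, 186 higher and 327 lower, turned to 1003 higher and 227 lower on unscaled signals and to 1489 higher and 66 lower when slide row was blocked. The LPS and saline arrays overlapped for all 6 members, whereas they did not overlap for 22.9% of all gene names and 11.2% of those well above background on all arrays. The fitted differences were positive for all 6, as for 44.2% of all gene names and 52.8% of those well above background. They lay between 0.00 for Pax2 and 0.48 for Epcam on the log2 scale. Their median was 0.29, beside -0.04 over all gene names and 0.01 over those well above background on all arrays. Their standard errors, from 0.37 to 0.55, were large beside a median of 0.21 over the 15861 gene names well above background on all arrays. The members shared a pattern from array to array, in which replicate 1 was the highest array of both treatments.

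**Figure D1:**
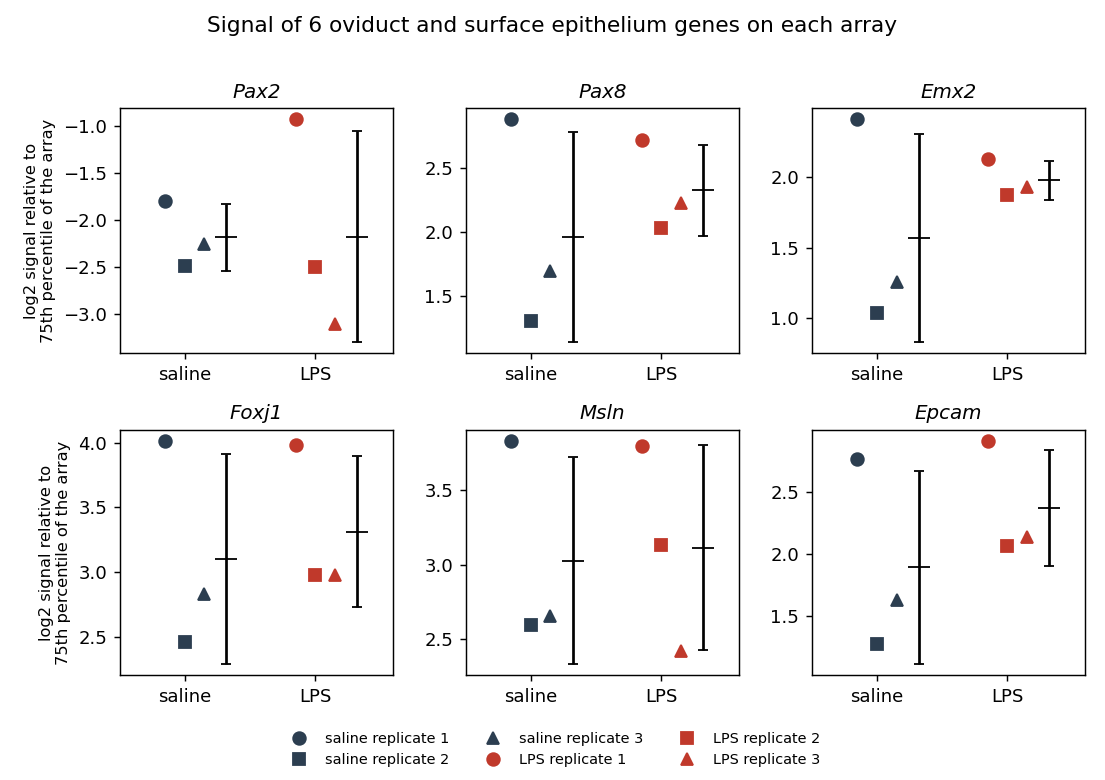
Each panel plots one gene's level (log2 signal minus the array's 75th percentile), with a symbol for each replicate number, blue for saline and red for LPS, and a black line and bar for the mean and SD of 3 arrays. The circles, replicate 1, are the 2 highest points in all 6 panels, and the saline and LPS arrays overlap in each.

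Among the transcription factors of the duct, Pax8 had levels of 2.72, 2.03 and 2.23 on LPS replicates 1, 2 and 3 and of 2.88, 1.31 and 1.70 on saline replicates 1, 2 and 3. Saline replicate 1 was the highest array and saline replicates 2 and 3 were the lowest, so the LPS arrays lay within the range of the saline arrays. The mean was 2.33 ± 0.36 (SD, n = 3) for LPS and 1.96 ± 0.82 (SD, n = 3) for saline. The log2 difference was 0.37 (standard error 0.43, adjusted p = 0.833 from limma), with a 95% interval from -0.65 to 1.38. The 2 spots of the probe differed on the log2 scale by at most 0.160 on any array, less than the gaps between the replicate 1 arrays and the others.

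Pax2, the paralog of Pax8, moved somewhat differently. Its levels, given as for Pax8, were -0.93, -2.50 and -3.10 after LPS and -1.79, -2.49 and -2.26 after saline. LPS replicate 1 stood 0.86 above saline replicate 1, the next array, while LPS replicate 3 was the lowest of all. The means of -2.18 ± 1.12 (SD, n = 3) for LPS and -2.18 ± 0.36 (SD, n = 3) for saline differed by 0.00 (standard error 0.55, adjusted p = 1.000 from limma), with a 95% interval from -1.30 to 1.31. The processed signal of Pax2, which is background-subtracted, was 641 to 1776 units, and every array measured it well above background. The mean net signal of the negative control spots, as the scanner software reports it, was 521 to 1025 units. That is a different measure, and the processed signal cannot be set directly against it. The 2 spots of the Pax2 probe differed by 0.241 to 0.624 on the log2 scale.

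Emx2 had levels of 2.13, 1.87 and 1.93 after LPS and of 2.41, 1.04 and 1.26 on the saline arrays. The LPS arrays were close together, and all of them fell between saline replicate 1 and saline replicate 3. The SD was 0.14 for LPS and 0.74 for saline (n = 3 each). The log2 difference was 0.41 (standard error 0.37, adjusted p = 0.738 from limma), with a 95% interval from -0.47 to 1.29.

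Foxj1, which directs the formation of motile cilia, had levels of 3.99, 2.97 and 2.98 after LPS and of 4.01, 2.46 and 2.83 after saline. The arrays of replicate 1 differed by 0.03 across the treatments, while each was about 1 unit or more above the other arrays of its treatment. The log2 difference between the means of 3.31 ± 0.58 for LPS and 3.10 ± 0.81 for saline (SD, n = 3) was 0.21 (standard error 0.47, adjusted p = 0.949 from limma). Its 95% interval ran from -0.91 to 1.34.

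Msln had levels of 3.79, 3.13 and 2.42 after LPS and of 3.83, 2.60 and 2.66 after saline. The lowest array was LPS replicate 3, and the replicate 1 arrays differed by 0.04. The log2 difference of 0.09 (standard error 0.46, adjusted p = 0.989 from limma) had a 95% interval from -1.02 to 1.19.

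Epcam had the largest fitted difference of the 6. Its levels were 2.91, 2.07 and 2.14 after LPS and 2.77, 1.28 and 1.63 after saline. The means were 2.37 ± 0.47 for LPS and 1.89 ± 0.78 for saline (SD, n = 3), and LPS was above saline at each of the 3 replicate numbers, by 0.14, 0.79 and 0.50. The log2 difference was 0.48 (standard error 0.43, adjusted p = 0.742 from limma), with a 95% interval from -0.55 to 1.51. Two-sided exact permutation tests over the arrays gave p from 0.4 to 1 for the 6 members, where 3 arrays against 3 cannot give a p below 0.1.

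**Figure D2:**
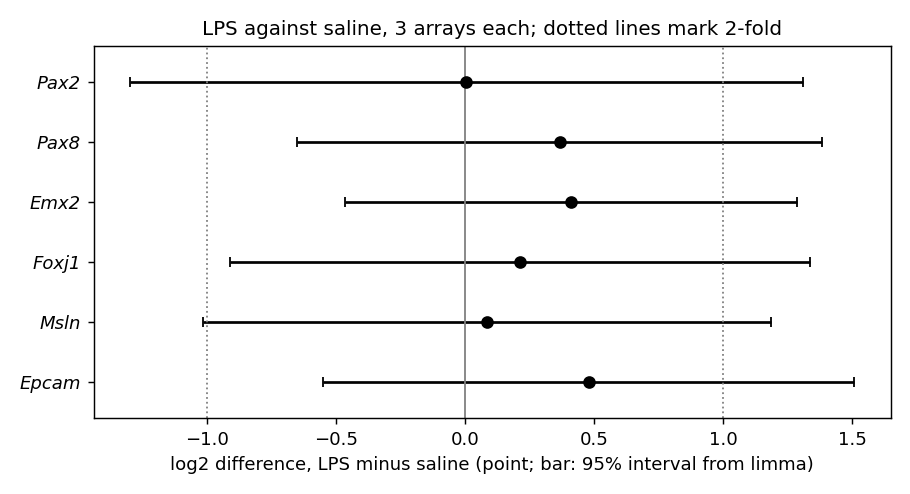
Points show the log2 difference, LPS minus saline, of each member over 3 arrays against 3, and bars show its 95% interval from limma. All 6 intervals include 0 and extend past 1, the dotted line for a 2-fold higher level.

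The sign of these differences depended on which saline arrays were used. With saline replicates 2 and 3 left out, so that saline replicate 1 alone stood against the LPS arrays, all 6 members had a negative difference, from -0.71 for Msln to -0.38 for Pax2, and unadjusted p from 0.164 to 0.688 in limma. With both replicate 1 arrays left out, a comparison chosen after the values were seen, the difference was 0.75 for Emx2, 0.65 for Epcam, 0.63 for Pax8, 0.33 for Foxj1, 0.15 for Msln and -0.42 for Pax2. Unadjusted p-values in limma were then 0.00862 for Emx2, 0.0230 for Epcam and 0.0323 for Pax8. The lowest adjusted p among the 6 was 0.123, and no difference reached 2-fold.

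Upstream sequence was at hand for 3 of the 6 members, and the 250 bases before each gene start are shown. Pax8 and Epcam rose and fell together across the arrays while Pax2 departed from them. The part of these sequences in those levels was not tested. The sequences are those of RefSeq on the GRCr8 assembly, written on the strand of the gene, and capitals mark the GC box GGGCGG or its complement. The windows are chr3:27640632-27640881 on the minus strand for Pax8, chr6:12649679-12649928 on the minus strand for Epcam and chr1:253565672-253565921 on the plus strand for Pax2.
Pax8: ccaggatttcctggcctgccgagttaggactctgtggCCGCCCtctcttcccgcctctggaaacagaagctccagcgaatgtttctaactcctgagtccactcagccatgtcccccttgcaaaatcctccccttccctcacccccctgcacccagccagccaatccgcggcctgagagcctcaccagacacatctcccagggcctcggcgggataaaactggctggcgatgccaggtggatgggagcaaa
Epcam: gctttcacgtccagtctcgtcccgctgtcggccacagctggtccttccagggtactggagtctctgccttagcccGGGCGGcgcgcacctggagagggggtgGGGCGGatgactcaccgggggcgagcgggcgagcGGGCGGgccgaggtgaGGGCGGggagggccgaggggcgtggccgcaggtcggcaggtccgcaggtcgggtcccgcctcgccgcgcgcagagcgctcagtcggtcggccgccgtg
Pax2: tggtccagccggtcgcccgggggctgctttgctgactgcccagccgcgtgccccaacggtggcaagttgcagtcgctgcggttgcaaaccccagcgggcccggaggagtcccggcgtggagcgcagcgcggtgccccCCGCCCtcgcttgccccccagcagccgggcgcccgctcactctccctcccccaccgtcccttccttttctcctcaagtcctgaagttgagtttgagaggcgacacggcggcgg
Epcam held 4 GC boxes and 33 CpG dinucleotides in its window, and Pax2 held 1 GC box and 25 CpG dinucleotides. Pax8 held 1 GC box, 9 CpG dinucleotides and 1 CCAAT box. Searched on both strands, GGGCGG was found in 30.5% of 33469 windows of this length, CCAAT in 34% and TATAAA in 12.9%, and the median window held 5 CpG dinucleotides. Neither TATAAA nor AACCGGTT, the motif of Grainyhead factors, was found in the 3 windows, and the motifs found did not overlap each other. The letters alone say nothing of use in the ovary, and Emx2, Foxj1 and Msln are named only.

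The level of a member ranged over 1.37 (Emx2) to 2.17 (Pax2) log2 units among the 6 arrays, where the median range over the 15861 gene names well above background on all arrays was 0.66 and the 95th percentile 1.77. For all 6 members both replicate 1 arrays lay above the other 4 arrays. Replicate 1 was the highest array of both treatments for 33.3% of those 15861 gene names, a description chosen after the members' values were seen. Saline replicate 1 exceeded the mean of saline replicates 2 and 3 by 1.38 for Pax8, 1.36 for Foxj1, 1.31 for Epcam, 1.26 for Emx2, 1.20 for Msln and 0.58 for Pax2. On the LPS side the excess of replicate 1 was 1.87 for Pax2, 1.02 for Msln, 1.01 for Foxj1, 0.81 for Epcam, 0.59 for Pax8 and 0.23 for Emx2. Pax2 thus had the largest excess of the 6 among the LPS arrays and the smallest among the saline arrays. The pattern depended on the scaling: without normalization between arrays, replicate 1 was highest in both treatments for 3 of the 6 members and for 4.12% of the gene names, whereas it was so for 6 of 6 under quantile normalization and under normexp background correction. Both replicate 1 arrays lay above the other 4 for 0 of the 6 members without normalization between arrays.

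Ciliated cell genes other than Foxj1 followed the same arrays. Of 35 genes in this list, which covers the motile cilium and its assembly, 21 had a probe and 20 were detected well above background throughout. In all 20, replicate 1 was the highest array of both treatments, and 10 of the 20 kept this without normalization between arrays. The median deviation of these genes from their own mean over 6 arrays was 0.60 on LPS replicate 1 and 0.90 on saline replicate 1, against -0.81 and -0.41 on saline replicates 2 and 3. Dynlrb2, which encodes a dynein light chain, had levels of 3.36, 2.60 and 2.71 after LPS and of 3.62, 1.72 and 2.25 after saline. Tppp3, a tubulin-binding protein gene, had levels of 4.16, 3.41 and 3.37 after LPS and of 4.62, 3.20 and 3.13 after saline. Tubb4b, a tubulin of the axoneme, and Cfap126 were also highest on both replicate 1 arrays. None of the 21 genes passed the 2-fold and unadjusted p criterion, and their median log2 difference was 0.18. The count was 1 with saline replicates 2 and 3 left out and 1 without saline replicate 1.

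General epithelial genes, which encode junction proteins, keratins and the factors that regulate them, gave a similar picture. Replicate 1 was the highest array of both treatments for 21 of the 24 genes well above background on all arrays, out of 27 with a probe. The 3 exceptions, named after their values were seen, were Esrp1, F11r and Lsr. Cd24, a surface glycoprotein gene, had levels of 5.50, 4.75 and 4.75 after LPS and of 5.75, 4.42 and 4.52 after saline. Krt19, the keratin of simple epithelia, had levels of 4.66, 4.10 and 3.91 after LPS and of 4.70, 3.31 and 3.93 after saline. Spint2, a protease inhibitor gene, was highest on the same arrays. None of the 27 passed the criterion, 25 had a positive difference, and the median was 0.34. The count past the criterion was 4 without saline replicate 1, 4 without normalization between arrays, 4 with the slide row as a block and 1 without LPS replicate 3, and it stayed at 0 with saline replicates 2 and 3 left out.

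**Figure D3:**
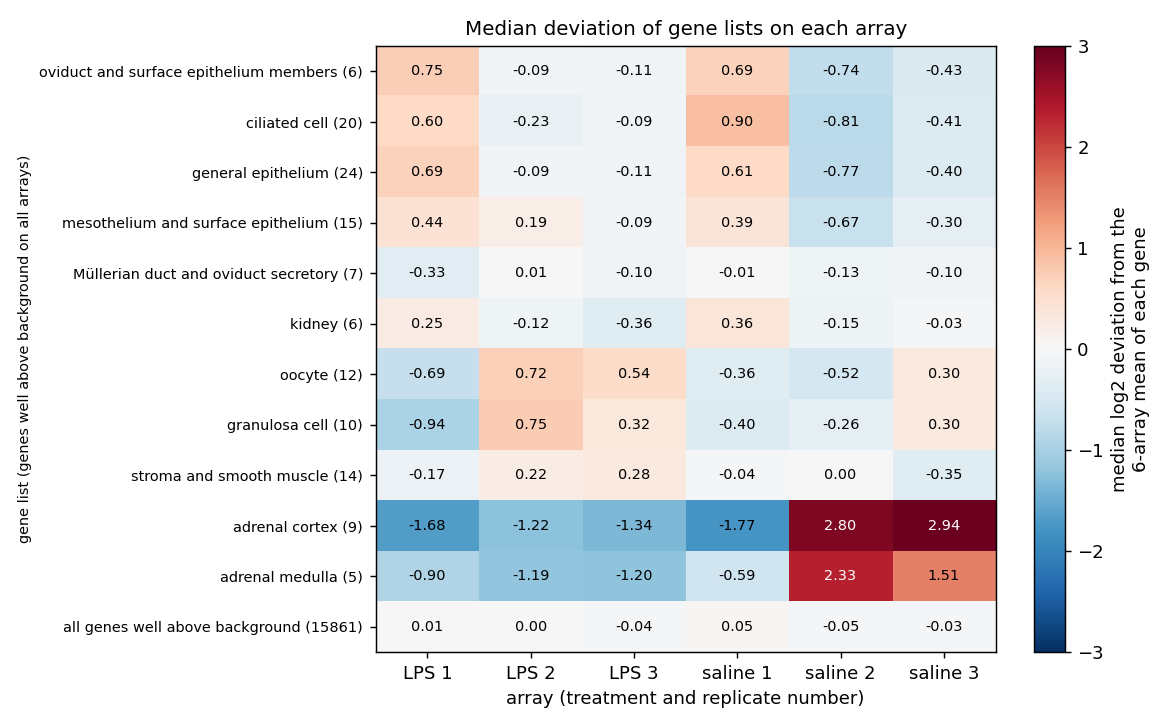
Each cell gives, for the genes of a list detected above background on every array (their number in parentheses), the median log2 deviation from each gene's own mean over the 6 arrays, with red above and blue below 0. The members, ciliated cell and general epithelial genes are highest on LPS 1 and saline 1 and lowest on saline 2, and the adrenal lists are high on saline 2 and saline 3.

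The mesothelial and surface epithelial list was more mixed. Of 18 genes with a probe, 15 were well above background throughout, and for 9 of these replicate 1 was the highest array of both treatments. Krt7, Krt8, Krt18 and Krt19, which are also in the general epithelial list, were among the 9. These genes are thus counted in both lists. Wt1, a transcription factor of the mesothelium and of the somatic gonad, had levels of 2.01, 2.07 and 2.04 after LPS and of 2.21, 1.16 and 1.55 after saline. Gata4, a factor of the surface epithelium and of granulosa cells, was lowest on LPS replicate 1, with levels of 1.36, 3.40 and 2.78 after LPS and of 1.82, 1.87 and 2.72 after saline. None of the 18 passed the criterion, and the median log2 difference was 0.39. The count was 2 without saline replicate 1, 4 on unscaled signals and 1 when slide row was blocked, and it stayed at 0 with saline replicates 2 and 3 left out.

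In the Müllerian duct and oviduct secretory list, 2 of 15 genes with a probe passed the 2-fold and unadjusted p criterion, both higher in LPS-treated ovaries. Hoxa11, a homeobox gene of the uterine part of the duct, had levels of -2.06, -4.29 and -4.61 after LPS and of -5.37, -6.30 and -6.64 after saline. Every LPS array but no saline array measured it well above background, so that only a bound can be given. The bound sets the LPS mean against the detection limit of each saline array, taken as its dimmest detected probe, or against the Hoxa11 signal where that was higher. By that bound it was at least 1.73-fold higher (adjusted p = 0.271 from limma). No such bound was had without LPS replicate 1, which stood over 2 log2 units above the other LPS arrays, and it lay between 1.64 and 2.41 on omitting any single one of the remaining arrays. The fitted log2 difference of Hoxa11, which is no bound, was 2.45. It was below 2-fold without background correction (0.45) and with normexp (0.82). It was the same in the methods' t-test and was 1.71 with saline replicates 2 and 3 left out, where the unadjusted p was over the threshold. With both replicate 1 arrays left out, a comparison chosen after the values were seen, the adjusted p was 0.0214 in limma. Neither saline array left in that comparison measured Hoxa11 well above background, so this p rests partly on values that were not detected. Esr1, the gene of estrogen receptor alpha, had levels of -1.56, -2.49 and -2.03 after LPS and of -2.33, -3.77 and -3.13 after saline, with overlap between them and a log2 difference of 1.05 (standard error 0.41, adjusted p = 0.287 from limma). Every LPS array but only 2 of the saline arrays measured Esr1 well above background, so its saline mean includes a value that was not. Esr1 no longer passed without LPS replicate 1 (log2 difference 0.82), LPS replicate 3 (1.05), saline replicate 2 (0.70) or saline replicate 3 (1.03), and gave 0.30 with saline replicates 2 and 3 both left out. It also no longer passed without background correction (0.42), with normexp (0.61), under quantile normalization (1.00) and in the methods' t-test. The list as a whole had 0 genes past the criterion with saline replicates 2 and 3 left out, and 1 to 4 on omitting single arrays, the highest without saline replicate 1.

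The remaining genes of that list did not move together. Of its 7 genes well above background on all arrays, 3 had replicate 1 as the highest array of both treatments. Elf3, an epithelial transcription factor gene, had levels of 0.88, -0.58 and -0.65 after LPS and of 0.76, -1.17 and -0.80 after saline. Wnt7a, which patterns the duct, had levels of 0.39, -0.85 and -1.09 after LPS and of -0.65, -1.58 and -1.40 after saline. Wnt4, needed for the duct to form and also made in the ovary and the adrenal gland, was by contrast lowest on the replicate 1 arrays, at 1.00 for LPS and 0.75 for saline. Amhr2, the receptor of anti-Müllerian hormone, which granulosa cells share, was lowest on LPS replicate 1 at -0.46 and reached 1.01 on LPS replicate 2.

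Over the 4 epithelial lists together, counting each gene once and leaving out the members, 75 of 99 genes had a probe. Of these, 2 were higher and 0 were lower by the 2-fold and unadjusted p criterion (2.67%, against 1.57% of all gene names). An unadjusted p under 0.05 was reached by 6 and an adjusted p under 0.05 by 0, in limma. The 15.9% of all gene names with an unadjusted p under 0.05 include names not well above background, so these shares are not compared. A positive difference was fitted for 63 of the 75, where 44.2% of all gene names and 52.8% of those well above background on all arrays had one. The median was 0.30, against -0.04 over all gene names and 0.01 over those well above background on all arrays. Many of these genes shared an array pattern, and their signs were not counted without saline replicates 2 and 3. Median deviations on saline replicate 1 were 0.90, 0.61 and 0.39 in the ciliated, general epithelial and mesothelial lists. They were -0.81, -0.77 and -0.67 on saline replicate 2 and -0.41, -0.40 and -0.30 on saline replicate 3. The Müllerian list had -0.01, -0.13 and -0.10 on saline replicates 1 to 3. The part of these arrays in the signs was not tested.

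**Figure D4:**
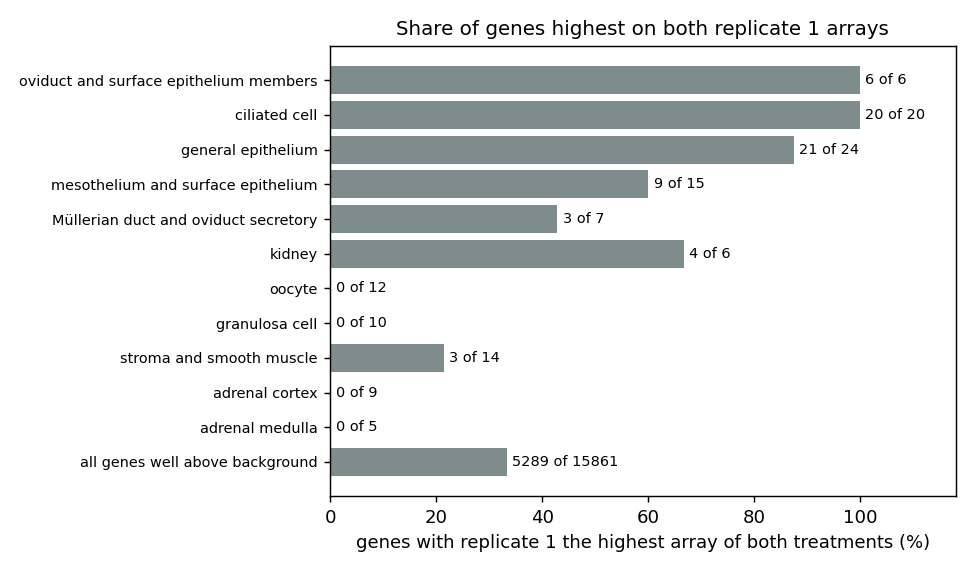
Bars give the percentage of the genes of each list, among those well above background on all arrays, for which replicate 1 was the highest array of both treatments, with the counts beside them. All 6 members and all 20 ciliated cell genes meet this, against 33.3% of all gene names and none of the oocyte, granulosa cell or adrenal genes.

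Among markers of other tissue on the same arrays, the kidney list shared the members' pattern in part and the other lists had other patterns. Kidney tubules also use Pax2, Pax8 and Epcam. Of 17 kidney genes with a probe, 6 were well above background throughout and 6 on no array, and their summed relative signal was 5.20 to 8.94 on the LPS arrays and 7.58 to 10.1 on the saline arrays. Replicate 1 was the highest array of both treatments for 4 of those 6, among them Cdh16, a cadherin of kidney tubules named after its values were seen, with levels of 2.02, 1.11 and 1.25 after LPS and of 2.44, 0.61 and 0.86 after saline. Among kidney genes well above background on every array of at least 1 treatment, the largest fitted log2 differences were those of Aqp1 (-0.89), Lrp2 (0.58) and Slc22a6 (-0.19), and 0 of 17 passed the criterion. The part of kidney tissue in the members' levels was not tested. Oocyte genes were 0.69 below their own mean on LPS replicate 1 in the median, 0.36 below on saline replicate 1 and 0.52 below on saline replicate 2, and were above it on the other 3 arrays. Granulosa cell genes were 0.94 below on LPS replicate 1 and 0.40 below on saline replicate 1. By the criterion 0 of 12 genes changed in either list, 7 of 14 adrenal cortex and 8 of 12 adrenal medulla genes were lower after LPS, and of 14 stroma and smooth muscle genes Tcf21 was higher and Myom2 lower. With saline replicates 2 and 3 left out the count was 0 in each of these lists, and the adrenal counts were also 0 with the slide row as a block and in the methods' t-test. On omitting single arrays, the cortex count ran from 1 to 13 and the medulla count from 1 to 10, with the highest of each without saline replicate 1. Over all alternatives the count was at most 1 in the kidney list, 3 in the oocyte list, 4 in the granulosa cell list and 3 in the stroma list. Among genes well above background on every array of at least 1 treatment, which leaves out adrenal genes seen on saline replicates 2 and 3 but not on saline replicate 1, the largest fitted log2 differences were those of Cyp21a1, Mrap and Cyp11b3 (-4.65 to -3.36) in the adrenal cortex list, of Slc18a1, Pnmt and Ddc (-3.50 to -2.22) in the medulla list, of Bmp15, Ddx4 and Zp2 (0.75 to 0.60) in the oocyte list, of Nr0b1, Fshr and Gja1 (-2.25, 0.98 and -0.66) in the granulosa cell list, and of Myom2, Tcf21 and Cnn1 (-2.39, 1.08 and 0.77) in the stroma list. Nr0b1, Gja1 and Myom2 were highest on saline replicates 2 and 3, the arrays with high adrenal signal, while Fshr, Tcf21 and Cnn1 were not. On saline replicates 1, 2 and 3 the levels were -3.47, 1.27 and 0.75 for Nr0b1 and 0.85, 2.73 and 3.10 for Gja1. For Myom2 they were -3.60, -0.72 and -0.42. The part of adrenal RNA in these differences was not tested. In neither the oocyte nor the granulosa cell list was replicate 1 the highest array of both treatments for any gene. The summed relative signal of the ciliated cell genes was 143, 95.2 and 93.2 after LPS and 192, 75.7 and 85.2 after saline, and of the oocyte genes 26.8, 83.2 and 66.7 after LPS and 37.8, 38.4 and 59.6 after saline. The part of these differences between arrays in the comparison of treatments was not tested.

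The genes with the pattern most like each member over the 6 arrays were found by Pearson correlation among 2257 named genes whose level was well above background throughout and ranged over at least 1 log2 unit. These values describe 6 arrays on which replicate 1 stood apart, and no test goes with them. Most like Foxj1 were Fgfbp1, Saxo4 and Hpn (r = 0.999 for each). Saxo4 encodes a microtubule protein of the axoneme, and its levels were 1.89, 0.92 and 0.92 after LPS and 1.98, 0.45 and 0.80 after saline. For Pax8 they were Elmod1, Akap14 and Prom1 (r = 0.998, 0.998 and 0.997), of which Prom1 encodes prominin 1, a protein of apical membranes. For Epcam they were Padi2, Ptgs1 and Cd8a (r = 0.999, 0.998 and 0.997), of which Ptgs1 encodes cyclooxygenase 1. For Emx2 they were Tcea3, Tcp11 and Padi4 (r = 0.999, 0.990 and 0.989), for Msln Marchf9, Klrk1 and Znrf4 (r = 0.997, 0.988 and 0.986), and for Pax2 Or56b6b, Cacng5 and Begain (r = 0.998, 0.997 and 0.997). The number of genes with r above 0.95 was 321 for Foxj1, 273 for Epcam, 270 for Pax8, 115 for Pax2, 92 for Msln and 70 for Emx2, so that the 3 named for each were drawn from many.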

How the data were processed

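Ovarian RNA was measured on 6 single-colour Agilent arrays, all on 1 slide and from 1 scan, 3 for each treatment, grouped by their titles. The authors deposited spot intensity values from Agilent Feature Extraction 10.5.1.1, and a table of the same intensity values, equal within 0.497%. The processed signal is background-subtracted, with a surrogate for dim spots. The submitters' processing notes name lumi without its role, and the paper states no normalization for the arrays. Precision is limited by the number of arrays.

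Spots flagged as outliers were left out, log2 signals of a probe were averaged, and the array's 75th percentile was subtracted. A probe was well above background where all its unflagged spots were. limma 3.58.1 in R 4.3.3 compared treatments over 30367 probes, each with at least 2 arrays per treatment, with Benjamini-Hochberg adjustment. It was tested on simulated data. Genes were named by RefSeq accession through a table of GRCr8, which matched 17998 probes. A gene's brightest probe was used. The text names every member, epithelial list genes past the criterion or among 4 by signal in their list, other markers, and 3 genes most like each member. The members and lists were chosen with earlier results of these data known. Arrays of the same replicate number deviated together from their group means (correlations across probes of 0.298, 0.215 and 0.254), and this is the only source of the pairing. Alternatives covered scaling, background, flags, dim probes, test, probe choice, slide row, replicate number and arrays left out.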

Additional observations from a re-analysis of the deposited data

How the results depend on the processing

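Under 21 alternatives, 0 members passed an adjusted p, and 0 passed the 2-fold and unadjusted p criterion except that 1, Pax2, did with the slide row as a block (log2 difference 1.25), since only 1 LPS array shares a slide row with saline. Of 126 member differences 109 kept their sign without passing and 16 changed sign, none past the criterion. Signs changed for all members with saline replicates 2 and 3 both left out (Pax2 -0.38, Pax8 -0.55, Foxj1 -0.70, Msln -0.71, Epcam -0.39, Emx2 -0.43), and for Pax2 under quantile normalization (-0.020) and with both replicate 1 arrays left out (-0.42), an alternative chosen after seeing the data. On omitting single arrays the difference lay between -0.62 and 0.47 for Pax2, -0.12 and 0.67 for Foxj1, -0.25 and 0.49 for Msln, 0.04 and 0.83 for Pax8, 0.17 and 0.91 for Epcam, and 0.14 and 0.83 for Emx2. Without LPS replicate 1 it was -0.62 for Pax2, -0.12 for Foxj1 and -0.25 for Msln, without saline replicate 2 it was -0.15, -0.11 and -0.13, and without saline replicate 3 it was -0.03 for Pax2 and -0.10 for Msln. The replicate block left each member's difference as it was (Epcam 0.48, unadjusted p = 0.0547 in limma) and changed no call. Over all probes 513 passed the criterion, 628 with the replicate block, 1230 without normalization between arrays, 1555 with the slide row as a block, 148 by the methods' t-test, 211 without background correction, 283 with normexp, 291 under quantile normalization, 1000 with saline replicates 2 and 3 left out, 1367 with both replicate 1 arrays left out, 289 among probes well above background on at least 3 arrays, and 250 to 1131 on omitting single arrays. The cause of these changes was not tested. For Pax2, the 2 spots of the probe differed by 0.241 to 0.624, and LPS replicate 1 stood 1.87 above the mean of LPS replicates 2 and 3. The part of its dim signal in its precision was not tested.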
